A study of Rattus norvegicus with 15 samples.

Results

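Rat aortic smooth muscle cells (SMC) treated with platelet-derived growth factor BB (PDGF-BB) were compared by RNA-seq with an untreated line named Myocd-LSD1NF. The comparison uses 7 of the 15 libraries of the series, taken by their labels: 3 from PDGF-BB treated SMC and 4 from the Myocd-LSD1NF line. The PDGF-BB group was the cell line labelled WT, starved for 48 h and then given human recombinant PDGF-BB at 30 ng/ml for 24 h. The Myocd-LSD1NF line was starved for 72 h with no PDGF-BB, so total starvation time was the same. A further 4 libraries came from the untreated WT line (control, starved for 72 h), and these are used to see how far a difference depends on which untreated cells PDGF-BB is read against. Cell line and treatment both differ between PDGF-BB and Myocd-LSD1NF, and their parts in a difference cannot be told apart in this comparison.

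The series was designed around a fusion of myocardin with the histone demethylase LSD1 (gene Kdm1a), used to remove dimethylation of histone H3 lysine 4 from SMC genes. The line that carries this fusion, Myocd-LSD1, entered the model fit and no comparison here. Neither the meaning of NF nor the making of the Myocd-LSD1NF line is described in the labels. Nothing in the labels ties libraries of a group to separate cultures, and the p-values rest on a spread among samples that may be technical. PDGF-BB was dissolved in acetic acid, and the labels do not mention this vehicle for the untreated cells.

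PDGF-BB is a dimeric ligand released by platelets and vascular cells that activates PDGF receptors, which are tyrosine kinases, and through them the RAS, ERK and phosphoinositide 3-kinase pathways. In vascular SMC it is the classical agent of phenotypic modulation, in which contractile genes controlled by serum response factor and myocardin go down and cells divide, migrate and rebuild their matrix. Growth factors also switch on immediate early genes within minutes, and many of the proteins these encode, such as DUSP phosphatases and Sprouty proteins, damp the pathway again.

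Values are TPM, transcript abundances that the authors scaled for gene length and to the same total in every library. The depth of sequencing cannot be read from TPM and is unknown. Genes at 1 TPM or more numbered 11575 to 11702 in PDGF-BB libraries, 11306 to 11515 in Myocd-LSD1NF and 11440 to 11610 in control. PDGF-BB libraries correlated with each other at 0.980 to 0.987 and Myocd-LSD1NF libraries at 0.963 to 0.988, against 0.928 to 0.958 between these groups (Pearson's r across genes on the log2 scale, with genes not independent). Certain libraries stood apart. PDGF-BB 2 had the highest share of mitochondrial transcripts, 10.724%, against 5.308% to 6.791% in the other PDGF-BB libraries and 5.213% to 7.233% in Myocd-LSD1NF. Myocd-LSD1NF 4 was far from the other 3 of its line in several contractile and matrix genes given below.

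The cells carried SMC transcripts in both groups, with Acta2, the smooth muscle actin gene, at 2068 TPM or more in all 7 libraries. Of the markers of other cell types, the endothelial genes Kdr, Tie1 and Emcn were listed at 0 in all 7 libraries and Cdh5 and Vwf reached at most 0.03 TPM. Both endothelial markers that were tested were called, Egfl7 higher at 37, 35.7 and 33.6 TPM in PDGF-BB, against 16.6, 27.1, 18.4 and 26.4 TPM in Myocd-LSD1NF (log2 fold change 0.68 ± 0.18, adjusted p = 0.0098), and Erg lower at 0.363 against 2.38 TPM (log2 fold change -1.14 ± 0.38, adjusted p = 0.0349), and Tek was at 0.56 to 2.13 TPM in PDGF-BB and 0.14 to 0.66 TPM in Myocd-LSD1NF. The Egfl7 call was lost under median-of-ratios scaling and the Erg call in 10 of 16 alternative fits. Endothelial markers summed to 35.9 to 38.1 TPM in PDGF-BB and 19.5 to 31.8 TPM in Myocd-LSD1NF. The leukocyte genes Cd3e and Aif1 were listed at 0 and Ptprc reached at most 0.02 TPM, while Cd14 was present at 73.7 to 131.8 TPM in PDGF-BB and 55.3 to 136.8 TPM in Myocd-LSD1NF. Cd68 was called higher at 0.867 against 0.318 TPM (log2 fold change 0.51 ± 0.16, adjusted p = 0.0267), a call lost in 7 of 16 alternative fits, and Lyz2 was at 0.16 to 0.25 TPM in PDGF-BB and listed at 0 in Myocd-LSD1NF. Sox10 and Wt1 were listed at 0. The keratin Krt8 was higher with PDGF-BB (40.4 against 16.5 TPM, log2 fold change 1.23 ± 0.24, adjusted p = 0.00196) and the mesothelial Upk3b lower (4.38 against 17.6 TPM, log2 fold change -1.83 ± 0.49, adjusted p = 0.0123), a call lost without PDGF-BB 3. Of the 10 fibroblast markers, 7 were tested and 4 were higher with PDGF-BB (Lum, Fbln1, Dpt and Pi16, log2 fold changes 3.32, 2.13, 1.23 and 0.80), where 23.9% of all genes were. Col14a1, Ogn and Pdgfra were tested and not called. Col14a1 was at 60.3 to 126.1 TPM in PDGF-BB and 85.3 to 232.1 TPM in Myocd-LSD1NF. Under median-of-ratios scaling 1 fibroblast marker was called lower. In Myocd-LSD1NF 3 were lower than in control, where 1.74% of all genes were. Fibroblast markers summed to 96.5 to 199.0 TPM in PDGF-BB, 96.2 to 249.0 TPM in Myocd-LSD1NF and 190.0 to 293.0 TPM in control, with Tcf21 listed at 0 in both compared groups, and the part of these other markers in the results below was not tested.

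Promoters are shown here for 6 of the genes described below, because each holds a short motif that more promoters of its list held than of all genes. Each is 250 bases before to 50 bases after the gene start from RefSeq, build GRCr8, written 5′ to 3′ along the gene, with the match in capitals. Cdc20 and Pttg1, which act in mitosis, hold TTTGAA, the core of the cell cycle homology region, read on the opposite strand in Pttg1. Mcm6, a subunit of the replicative helicase, holds TTTCGCGC, a motif known for E2F factors, read here on the opposite strand. Egr2, a zinc finger transcription factor of the early response, holds a CArG box, the element bound by serum response factor (CC, 6 bases of A or T, then GG). Nfkbia and Cxcl1, the inhibitor of NF-kappaB and a neutrophil chemokine, hold the kappaB motif, the element bound by NF-kappaB, read on the opposite strand in Nfkbia.
Cdc20 (chr5:137255750-137256049, minus strand): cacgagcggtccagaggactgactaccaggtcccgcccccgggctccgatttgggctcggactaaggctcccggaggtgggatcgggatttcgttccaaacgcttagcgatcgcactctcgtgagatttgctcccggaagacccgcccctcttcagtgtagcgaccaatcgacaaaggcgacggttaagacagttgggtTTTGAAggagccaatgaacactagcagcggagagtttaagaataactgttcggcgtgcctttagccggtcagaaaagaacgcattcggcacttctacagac
Pttg1 (chr10:28406277-28406576, minus strand): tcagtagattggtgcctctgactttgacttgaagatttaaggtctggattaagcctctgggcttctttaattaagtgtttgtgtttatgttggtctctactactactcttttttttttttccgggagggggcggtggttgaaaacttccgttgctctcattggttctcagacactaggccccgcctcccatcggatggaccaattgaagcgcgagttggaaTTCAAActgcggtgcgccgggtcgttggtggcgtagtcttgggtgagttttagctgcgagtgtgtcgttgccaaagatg
Mcm6 (chr13:42404303-42404602, minus strand): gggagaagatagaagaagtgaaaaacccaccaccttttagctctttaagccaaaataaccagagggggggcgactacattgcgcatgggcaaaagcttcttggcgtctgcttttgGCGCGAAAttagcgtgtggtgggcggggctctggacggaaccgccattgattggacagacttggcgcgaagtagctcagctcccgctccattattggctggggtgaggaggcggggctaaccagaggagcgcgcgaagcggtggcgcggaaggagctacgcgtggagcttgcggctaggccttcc
Egr2 (chr20:21054392-21054691, minus strand): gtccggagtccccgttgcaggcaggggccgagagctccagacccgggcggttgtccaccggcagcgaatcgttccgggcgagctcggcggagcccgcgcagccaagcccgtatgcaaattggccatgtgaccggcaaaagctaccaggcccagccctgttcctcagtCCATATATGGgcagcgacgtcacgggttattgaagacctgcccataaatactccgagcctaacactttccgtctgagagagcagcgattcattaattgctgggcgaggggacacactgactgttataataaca
Nfkbia (chr6:78597023-78597322, minus strand): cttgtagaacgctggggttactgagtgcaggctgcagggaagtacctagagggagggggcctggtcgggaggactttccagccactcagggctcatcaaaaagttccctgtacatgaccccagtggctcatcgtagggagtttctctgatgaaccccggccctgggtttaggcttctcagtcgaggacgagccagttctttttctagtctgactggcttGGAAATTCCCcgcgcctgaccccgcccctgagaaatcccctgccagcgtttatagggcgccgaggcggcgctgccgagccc
Cxcl1 (chr14:17479272-17479571, minus strand): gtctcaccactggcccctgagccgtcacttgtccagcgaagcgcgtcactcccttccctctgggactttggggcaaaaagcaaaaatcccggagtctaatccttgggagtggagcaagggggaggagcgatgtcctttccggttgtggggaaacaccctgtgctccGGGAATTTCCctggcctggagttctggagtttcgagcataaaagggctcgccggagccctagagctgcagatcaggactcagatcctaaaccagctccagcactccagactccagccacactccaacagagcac
Both strands were searched, and none of the matches shown overlapped a match to another of these motifs. TTTGAA was present in 27 of the 40 mitosis genes with a promoter in the RefSeq table and in 19.4% of all 27457 genes in it. TTTCGCGC was present in 10 of 36 replication genes and in 0.361% of all genes. The CArG box was present in 5 of 26 early response genes (Egr1, Egr2, Klf6, Zfp36 and Srf) and 1.77% of all genes, and the kappaB motif in 5 of 34 chemokine and NF-kappaB genes (Cxcl1, Cxcl6, Nfkb1, Nfkbia and Nfkbiz) and 0.0874%. These are matches of letters in a window and no measure of binding.

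PDGF-BB treated cells differed from the Myocd-LSD1NF line in 3839 of the 12207 genes tested, 31.4%, by limma with a Benjamini-Hochberg adjusted p under 0.05. Without PDGF-BB 3, 2177 were called. Genes called higher numbered 2913 (23.9%) and genes called lower 926 (7.59%). The median log2 fold change of all genes was 0.18, so a gene at 0 lies below the median. When the libraries were scaled to remove this shift (median-of-ratios), 1572 genes were higher and 1612 lower, and with quantile normalization 1924 and 1478. The split into higher and lower therefore depended on the scaling, and list counts above 1 are followed by their scaled value where these differ by more than 1.5 times. Every list count below is to be read against the 23.9% of all genes called higher and the 7.59% called lower. At a change of at least 2-fold, 665 genes were higher (5.45%) and 385 lower (3.15%). The groups did not overlap in any library for 3828 genes on the higher side (31.4%) and 1106 on the lower side (9.06%). Fold changes below are on the log2(TPM + 1) scale, which understates those of low genes, and are given ± SE.

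**Figure D1:**
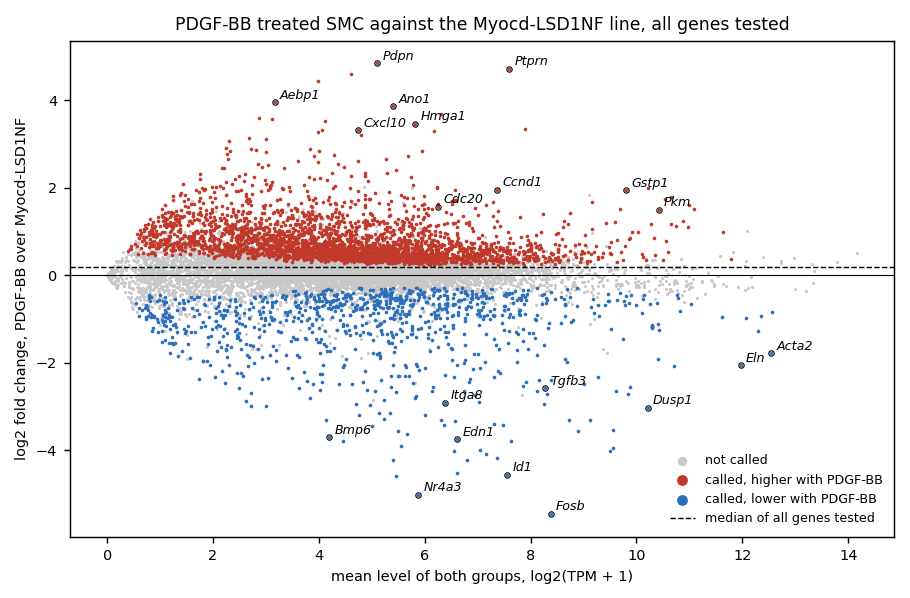
Log2 fold change of PDGF-BB over Myocd-LSD1NF (vertical axis) against the mean level of both groups in log2(TPM + 1) (horizontal axis) for 12207 genes, each a point, with 2913 called higher in red and 926 called lower in blue. The dashed line is the median of all genes, 0.18, and the largest falls, down to -5.45 for Fosb, belong to early response genes.

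The Myocd-LSD1NF line itself differed from control in 270 genes (2.21%), 58 higher (0.475%) and 212 lower (1.74%), and PDGF-BB differed from control in 3384 genes (27.7%), 2347 higher (19.2%) and 1037 lower (8.5%). The count against control was 2137 without PDGF-BB 3, and that of Myocd-LSD1NF against control was 109, 112 and 171 without control 1, 2 and 3 and 128 without Myocd-LSD1NF 2. These comparisons share libraries with the main one, so their values are set side by side and are not independent. The test between Myocd-LSD1NF and control is the test of whether a gene's reading of PDGF-BB depends on the untreated cells it is set against.

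**Figure D2:**
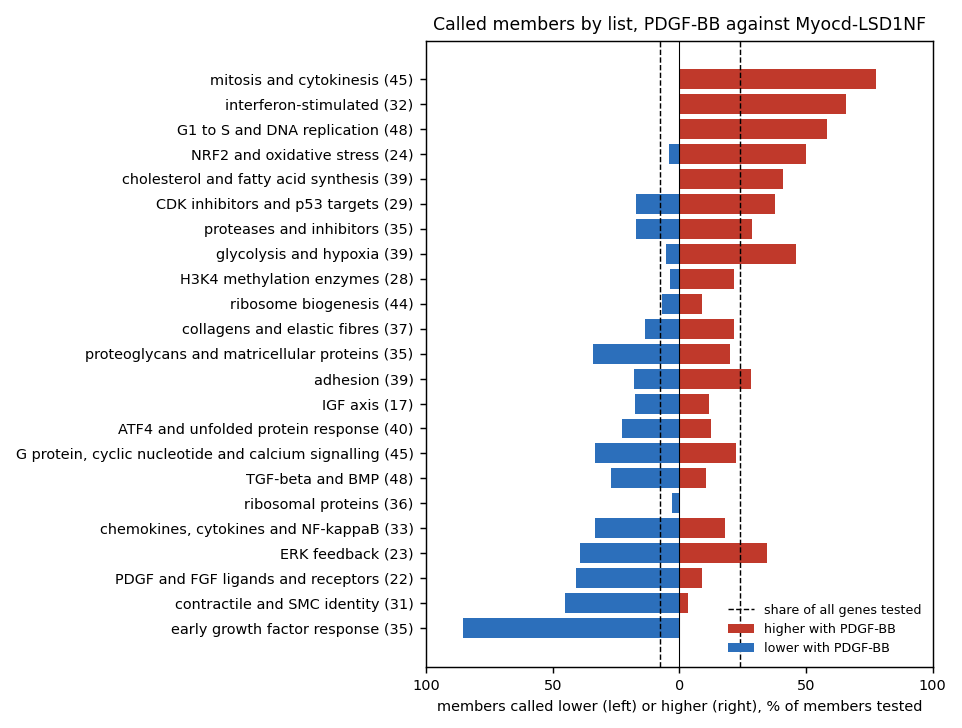
Share of the tested members of each of 23 lists (number tested in parentheses) that were called higher (red, right) or lower (blue, left) in PDGF-BB than in Myocd-LSD1NF, in percent, with dashed lines at the shares of all genes tested, 23.9% and 7.59%. Early response genes stand at one end with 30 of 35 lower and mitosis genes at the other with 35 of 45 higher.

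Early growth factor response genes had the lowest median of the 23 lists. Of 35 genes tested in this list, 30 were lower with PDGF-BB than in Myocd-LSD1NF and 0 higher, and the median log2 fold change was -2.33 against 0.18 for all genes. The AP-1 subunit gene Fosb had 60.1, 1.3 and 18.2 TPM in the PDGF-BB libraries, against 429, 489, 688 and 942 TPM in Myocd-LSD1NF (log2 fold change -5.45 ± 0.78, adjusted p = 2.37e-04). Fos, its best known relative, shown after its values were seen, had 514, 5.83 and 164 TPM against 1364, 1150.1, 1475 and 1136 TPM (log2 fold change -3.93 ± 0.93, adjusted p = 0.00638). Neither gene overlapped between the groups, and PDGF-BB 2 was the lowest and PDGF-BB 1 the highest of the treated libraries for both. For Fosb, among the largest falls taken, no overlap was a condition. The zinc finger factors of the EGR family were lower as well. Egr2, whose promoter is shown above, had 12.1, 1.76 and 2.79 TPM in PDGF-BB, against 46.3, 44.3, 53.5 and 81.4 TPM in Myocd-LSD1NF (log2 fold change -3.43 ± 0.49, adjusted p = 2.25e-04), as were Egr1 and Egr3 with log2 fold changes of -2.70 and -2.96. Egr4 was listed at 0 in all 3 PDGF-BB libraries, against a mean of 2.54 TPM.

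The orphan nuclear receptors of the NR4A family were among the 10 largest falls of genes at 5 TPM or more. Nr4a1 had 191, 20.8 and 127 TPM with PDGF-BB, against 930.2, 1223, 1380.3 and 1835 TPM in Myocd-LSD1NF (log2 fold change -4.005 ± 0.55, adjusted p = 1.71e-04). Nr4a2 averaged 6.56 ± 2.99 TPM against 187 ± 100.4 TPM (log2 fold change -4.52 ± 0.64, adjusted p = 2.18e-04), and Nr4a3 1.29 ± 0.154 TPM against 113 ± 108 TPM (log2 fold change -5.02 ± 1.21, adjusted p = 0.00715). The spread within the Myocd-LSD1NF line was wide for Nr4a3, with 13.7, 86.0, 86.7 and 267 TPM, yet the lowest of these was above the highest PDGF-BB value. No overlap was a condition for the 10 largest falls. Atf3, a stress-induced factor of the ATF family, had 3.5, 1.37 and 2.71 TPM against 57.0, 107, 65.6 and 103 TPM (log2 fold change -4.57 ± 0.65, adjusted p = 2.19e-04). The early genes Csrnp1 and Sik1, of a nuclear protein and a salt-inducible kinase, fell by 4.17 ± 0.505 and 4.22 ± 0.51 on the log2 scale. Klf4, a factor known to oppose contractile gene expression in SMC and also shown after its values were seen, had 37.4, 18.1 and 38.1 TPM against 113, 230.1, 285 and 227 TPM (log2 fold change -2.74 ± 0.58, adjusted p = 0.00346).

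No early gene was called between Myocd-LSD1NF and control, and 28 of 35 were lower with PDGF-BB than in control. The shares of all genes were 2.21% and 8.5%, so the absence of calls in a list of this size says little. Junb, another AP-1 subunit, is among the genes with the smallest difference between the untreated groups, with 248 ± 179.6 TPM in PDGF-BB, 1309 ± 241 TPM in Myocd-LSD1NF and 1335 ± 416 TPM in control. The summed level of the list was 9814, 4539 and 6372 TPM in PDGF-BB 1 to 3, against 19661, 19520.0, 22971 and 27660.0 TPM in Myocd-LSD1NF 1 to 4. PDGF-BB 2, the lowest here, is the library with the high mitochondrial share. The part of this difference in the result was not tested. With PDGF-BB 2 left out, 26 members were called lower. Members not called were Fosl1, Ier5, Myc, Klf5 and Plaur, and Myc was at 77.8 ± 17.8 TPM in PDGF-BB and 89.9 ± 12.9 TPM in Myocd-LSD1NF.

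Feedback genes of the ERK pathway moved in both directions. Of 23 tested, 8 were higher and 9 lower, with a median of -0.38. Dusp1, a phosphatase that inactivates MAP kinases, had 591, 82.7 and 314 TPM with PDGF-BB, against 1758, 1996, 2107 and 2285 TPM in Myocd-LSD1NF (log2 fold change -3.02 ± 0.44, adjusted p = 2.50e-04). Spry1, a Sprouty inhibitor of receptor tyrosine kinase signalling, had 7.89, 3.44 and 4.19 TPM against 36.0, 48.7, 51.8 and 43.0 TPM (log2 fold change -2.95 ± 0.25, adjusted p = 3.81e-06). Both were lower in every PDGF-BB library than in any Myocd-LSD1NF library, as were 9.06% of all genes. For Dusp1, also taken among the genes in which the untreated groups differed least, no overlap was a condition. The cytokine gene Lif fell as well, to 9.96 ± 6.29 TPM against 209.6 ± 141 TPM (log2 fold change -4.22 ± 0.79, adjusted p = 0.0015).

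The ETS factors of the PEA3 group, which ERK signalling is known to raise, were higher with PDGF-BB. Etv4 had 25.01, 35.5 and 54.6 TPM in PDGF-BB, against 4.48, 7.93, 3 and 18.4 TPM in Myocd-LSD1NF (log2 fold change 2.26 ± 0.46, adjusted p = 0.00248), and 8.77, 7.65, 4.54 and 6.32 TPM in control. Etv1 averaged 3.38 ± 0.950 TPM against 0.765 ± 0.631 TPM (log2 fold change 1.36 ± 0.28, adjusted p = 0.00318). Etv5 had 21.7, 31.1 and 36.5 TPM against 9.66, 9.53, 7.24 and 21.9 TPM (log2 fold change 1.32 ± 0.28, adjusted p = 0.00335), and Myocd-LSD1NF 4 reached into the PDGF-BB range. Dusp10 rose to 7.24 ± 0.375 TPM, against 2.75 ± 1.66 TPM (log2 fold change 1.23 ± 0.29, adjusted p = 0.0058), while Dusp6, the cytosolic ERK phosphatase, did not pass the test, with means of 35.5 and 37.0 TPM (adjusted p = 0.999). Under median-of-ratios scaling 5 members were higher and 9 lower, and 5 were higher without PDGF-BB 3 and 5 without Myocd-LSD1NF 3.

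Dusp5, a nuclear ERK phosphatase, is the member whose size of fall depended on the untreated cells. It had 7.96, 4.9 and 12.8 TPM with PDGF-BB, against 51.5, 80.9, 67.1 and 59.8 TPM in Myocd-LSD1NF and 16.7, 12.8, 17.6 and 23.2 TPM in control. The log2 fold change was -2.85 ± 0.40 against Myocd-LSD1NF (adjusted p = 1.90e-04) and -1.02 ± 0.40 against control (adjusted p = 0.0681). Myocd-LSD1NF stood above control, with a log2 fold change of 1.84 ± 0.37 (adjusted p = 0.0177), a difference for which the naming rule also took Dusp5.

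Contractile genes were lower with PDGF-BB in 14 of 31 members tested and higher in 1, with a median log2 fold change of -0.65. Acta2 had 3233, 2362 and 2068 TPM in PDGF-BB, against 10748, 10729, 11982 and 3979 TPM in Myocd-LSD1NF (log2 fold change -1.78 ± 0.33, adjusted p = 0.00146). Tagln, the actin-binding protein transgelin, had 3159.8, 2697 and 2746 TPM against 5369, 6125, 7007 and 4288 TPM (log2 fold change -0.97 ± 0.22, adjusted p = 0.00445). For both genes the groups did not overlap, and the lowest Myocd-LSD1NF value was that of library 4. Myh11, the smooth muscle myosin heavy chain and the most specific of these markers, had 4.43, 2.83 and 1.8 TPM against 19.9, 13, 13.5 and 3.55 TPM (log2 fold change -1.60 ± 0.44, adjusted p = 0.0143). Here the groups overlapped, since Myocd-LSD1NF 4 lay within the PDGF-BB values, and the call was lost without PDGF-BB 3.

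The largest fall among contractile and identity genes was in Itga8, the integrin alpha 8 chain of differentiated SMC, with 21.2, 16.96 and 16.1 TPM in PDGF-BB, against 201, 102, 135 and 149.8 TPM in Myocd-LSD1NF (log2 fold change -2.92 ± 0.38, adjusted p = 1.07e-04). Casq2, a calcium-binding protein of the sarcoplasmic reticulum, fell to 7.55 ± 2.32 TPM, against 50.4 ± 7.88 TPM in Myocd-LSD1NF (log2 fold change -2.61 ± 0.27, adjusted p = 2.18e-05) and 54.4 ± 20.5 TPM in control. The naming rule also took Casq2 for the small difference between the untreated groups, so their close levels are no result. Smtn, Cald1 and Tpm1 had log2 fold changes of -1.10, -1.19 and -0.86. Cnn1, basic calponin, did not pass the test although no library overlapped, with 423, 308 and 318 TPM in PDGF-BB, against 566, 726, 927 and 812 TPM (log2 fold change -1.11 ± 0.74, adjusted p = 0.268). It did pass when the compared groups were fitted alone and when the Myocd-LSD1 line was left out of the fit. Myocd itself had 23.1, 21.2 and 14.8 TPM against 41.1, 49.6, 29.5 and 18.3 TPM (log2 fold change -0.71 ± 0.26, adjusted p = 0.0457), with overlapping groups, and lost its call in 10 of 17 alternative fits. Synpo2, the actin-bundling protein myopodin, went the other way with 36.1, 39.3 and 21.4 TPM in PDGF-BB, against 6.47, 6.85, 5.49 and 0.42 TPM in Myocd-LSD1NF (log2 fold change 2.74 ± 0.46, adjusted p = 7.27e-04).

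The reading of the contractile list differed with the untreated cells used. Against control, 22 of 31 members were lower with PDGF-BB and 1 higher, with a median of -1.31, where 8.5% and 19.2% of all genes were. Myocd-LSD1NF was lower than control in 4 members (Tpm2, Ldb3, Actg2 and Myl9) with a median of -0.42, where 1.74% of all genes were. These 4 genes, shown for this reason and not by the naming rule, were not called against Myocd-LSD1NF. Myl9, the regulatory light chain of smooth muscle myosin, had 713, 759 and 672 TPM in PDGF-BB, 462, 445, 671 and 129 TPM in Myocd-LSD1NF and 2772, 3155, 2755 and 1771 TPM in control. Its log2 fold change was 0.96 ± 0.43 against Myocd-LSD1NF (adjusted p = 0.0987) and -1.84 ± 0.43 against control (adjusted p = 0.0059), and that of Myocd-LSD1NF against control was -2.80 ± 0.40 (adjusted p = 0.00124). All PDGF-BB and Myocd-LSD1NF values were below all control values. Actg2, the gamma smooth muscle actin, had 2.69, 3.86 and 4.11 TPM with PDGF-BB, 0.86, 5.77, 1.85 and 0.21 TPM in Myocd-LSD1NF and 28.2, 15.6, 26.0 and 19.5 TPM in control. It was at 0.81 ± 0.45 against Myocd-LSD1NF (adjusted p = 0.176) and -2.34 ± 0.45 against control (adjusted p = 0.00172). Tpm2, a beta tropomyosin, averaged 1825 ± 264 TPM, 2676 ± 802 TPM and 4776 ± 799 TPM in the same groups, and Ldb3 3.33 ± 0.640, 2.28 ± 0.203 and 6.79 ± 1.12 TPM.

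The summed level of the contractile list was 16733, 14559 and 14432 TPM in PDGF-BB 1 to 3, against 31575, 31583, 35272 and 19660.0 TPM in Myocd-LSD1NF 1 to 4. Myocd-LSD1NF 4 lay closer to PDGF-BB than to the other libraries of its line. Without it, 18 members were lower in place of 14, and the count ranged from 10 to 18 over the alternatives. In bulk samples fewer cells of a type and less RNA per cell cannot be told apart.

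**Figure D3:**
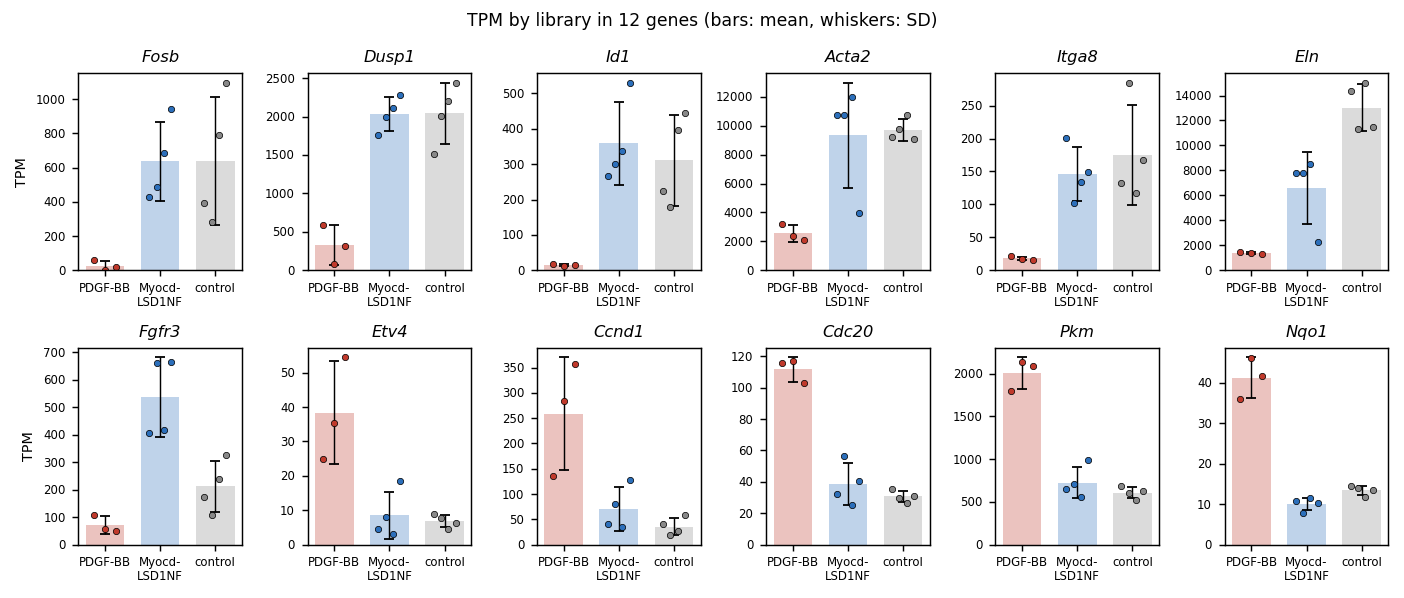
TPM of 12 genes in each library, with PDGF-BB (red, n = 3), Myocd-LSD1NF (blue, n = 4) and control (grey, n = 4), bars at the mean and whiskers of 1 SD, each panel with its own axis from 0. Fosb, Dusp1, Id1, Acta2, Itga8, Eln and Fgfr3 are lower and Etv4, Ccnd1, Cdc20, Pkm and Nqo1 higher in every PDGF-BB library than in any Myocd-LSD1NF library, and the low Acta2 and Eln points of Myocd-LSD1NF are library 4. No overlap was a condition of the naming rule for Fosb, Dusp1, Id1 and Etv4. Among all genes 9.06% did not overlap on the lower side and 31.4% on the higher side.

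The list of growth factor ligands and receptors, mostly of the PDGF and FGF families but with members of the EGF, VEGF and HGF families as well, showed 9 falls and 2 rises among 22 tested, with a median of -0.63. Under either scaling, and without any 1 of the PDGF-BB libraries, it showed 1 rise. The receptor for PDGF-BB, Pdgfrb, did not differ by the test, with 431, 365 and 305 TPM in PDGF-BB and 472, 435, 343 and 488 TPM in Myocd-LSD1NF (log2 fold change -0.25 ± 0.17, adjusted p = 0.27), but it was called lower under median-of-ratios scaling at -0.45. Pdgfra, the alpha receptor, was low in both groups, at 3.04 ± 0.304 and 2.67 ± 1.07 TPM (log2 fold change 0.19 ± 0.34, adjusted p = 0.704). The ligand genes changed in different directions. Pdgfb, which encodes the ligand given to the cells, had 4.21, 3.51 and 2.71 TPM in PDGF-BB, against 29.3, 42.9, 33.7 and 6.17 TPM in Myocd-LSD1NF (log2 fold change -2.44 ± 0.52, adjusted p = 0.00372), and Myocd-LSD1NF 4 was the lowest of its line. Pdgfa was lower as well (log2 fold change -1.28 ± 0.18, adjusted p = 1.90e-04), while Pdgfc rose to 15.4 ± 2.02 TPM, against 4.83 ± 1.10 TPM (log2 fold change 1.502 ± 0.22, adjusted p = 2.32e-04) and 4.76 ± 1.22 TPM in control.

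FGF receptor genes were also split. Fgfr3 had 108, 55.8 and 49.95 TPM in PDGF-BB, against 406, 661, 417 and 666 TPM in Myocd-LSD1NF (log2 fold change -2.94 ± 0.43, adjusted p = 2.56e-04), and 175, 108, 238 and 328 TPM in control, whose mean lay between. Fgfr2 was lower, with a log2 fold change of -1.94 ± 0.21. Fgfr1 was higher at 47.0 ± 2.34 TPM, against 25.9 ± 12.5 TPM in Myocd-LSD1NF (log2 fold change 0.97 ± 0.29, adjusted p = 0.0211), but it stood at 53.8 ± 9.34 TPM in control, where Myocd-LSD1NF was lower (-1.14 ± 0.27, adjusted p = 0.0377) and PDGF-BB did not differ by the test (-0.18 ± 0.29, adjusted p = 0.685). The Fgfr1 call was lost in 6 of 17 alternative fits, both scalings included. Of the ligands, Fgf18 had 1.41, 0.54 and 0.32 TPM against 17.2, 5.42, 19.6 and 121 TPM (log2 fold change -3.78 ± 0.70, adjusted p = 0.0015), with Myocd-LSD1NF 4 far above its group, and Hbegf, a heparin-binding ligand of the EGF receptor, had 63.6, 32.9 and 82.9 TPM against 188, 237, 249.8 and 457 TPM (log2 fold change -2.24 ± 0.34, adjusted p = 3.70e-04).

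Genes of DNA replication and mitosis were higher with PDGF-BB. Of 48 genes for G1 to S and replication, 28 rose and 0 fell, with a median of 0.84. Ccnd1, cyclin D1, had 136, 285 and 356 TPM in PDGF-BB, against 39.8, 80.02, 34.1 and 128 TPM in Myocd-LSD1NF (log2 fold change 1.95 ± 0.52, adjusted p = 0.012), so that the groups came close without overlapping, and the call was lost without PDGF-BB 3. Ccnd2 averaged 6.07 ± 3.19 TPM against 0.705 ± 0.813 TPM (log2 fold change 2.03 ± 0.48, adjusted p = 0.0068). It was at 4.25 ± 2.35 TPM in control, against which PDGF-BB did not pass the test (adjusted p = 0.522). Tk1, thymidine kinase of S phase, had 71.7, 87.2 and 85.1 TPM in PDGF-BB, against 22.0, 42.8, 15.3 and 33.1 TPM in Myocd-LSD1NF (log2 fold change 1.58 ± 0.35, adjusted p = 0.00411). Mcm6, whose promoter is shown above, had 49.3, 70.9 and 79.0 TPM against 24.6, 43.2, 17.01 and 30.2 TPM (log2 fold change 1.23 ± 0.30, adjusted p = 0.0081), and no library overlapped. Mcm6 is no gene of the naming rule and was shown after its values were seen.

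Of 45 mitosis and cytokinesis genes, 35 rose and 0 fell, with a median of 1.17. Cdc20, an activator of the anaphase-promoting complex, had 115, 117 and 103 TPM in PDGF-BB, against 32.5, 56.4, 25.1 and 40.5 TPM in Myocd-LSD1NF (log2 fold change 1.57 ± 0.35, adjusted p = 0.00441). Pttg1, securin, had 35.8, 28.8 and 28.8 TPM against 8.53, 13.7, 5.91 and 12.2 TPM (log2 fold change 1.59 ± 0.34, adjusted p = 0.00332), and Ccnb1, cyclin B1, averaged 71.1 ± 3.15 TPM against 24.1 ± 9.15 TPM (log2 fold change 1.60 ± 0.42, adjusted p = 0.0118). Kif20a, a kinesin of cytokinesis, was at 113 ± 14.2 TPM against 38.0 ± 14.5 TPM (log2 fold change 1.62 ± 0.40, adjusted p = 0.00774). The 3 PDGF-BB libraries were tightly placed for these genes, while Myocd-LSD1NF 2 was the highest and Myocd-LSD1NF 3 the lowest of its line. Members that did not pass the test included Mki67, Top2a and Plk1, with log2 fold changes of 1.06, 1.07 and 0.93 and adjusted p = 0.0648, 0.0515 and 0.0813.

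Read against control, 44 of 45 mitosis genes and 36 of 48 replication genes were higher with PDGF-BB, against 19.2% of all genes. No member of either list was called between Myocd-LSD1NF and control, where only 2.21% of all genes were. The summed level of the mitosis list was 1901, 1897 and 1969.6 TPM in PDGF-BB 1 to 3, against 793, 1306, 572 and 982 TPM in Myocd-LSD1NF 1 to 4. The counts moved with single libraries. Without PDGF-BB 2, PDGF-BB 3 or Myocd-LSD1NF 3, the mitosis genes called higher numbered 22, 20 and 23 and the replication genes 17, 14 and 17, and without Myocd-LSD1NF 2 they numbered 42 and 38.

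Inhibitors of cyclin-dependent kinases and targets of p53 were called higher in 11 and lower in 5 of 29, with a median of 0.35, and 4 higher under median-of-ratios scaling and 7 with quantile normalization. The higher count was 5 without PDGF-BB 2, 5 without PDGF-BB 3 and 6 without Myocd-LSD1NF 3. Ccng1, cyclin G1 and a direct p53 target, had 375, 507 and 563 TPM in PDGF-BB, against 273, 321, 204 and 189 TPM in Myocd-LSD1NF (log2 fold change 0.97 ± 0.22, adjusted p = 0.00467). Cdkn2a, which encodes p16 and p19ARF, averaged 46.0 ± 5.69 TPM against 25.4 ± 7.33 TPM (log2 fold change 0.86 ± 0.20, adjusted p = 0.00575), and Aen, a p53-induced nuclease, 64.8 ± 9.37 TPM against 36.7 ± 7.21 TPM (log2 fold change 0.81 ± 0.17, adjusted p = 0.00286). Cdkn1a, which encodes p21, did not pass the test, with means of 183 and 144 TPM (adjusted p = 0.345). The falls were in the BTG and GADD45 families and Plk3, a stress-responsive kinase. Btg2, an antiproliferative gene, had 303, 33.1 and 142 TPM in PDGF-BB, against 1139.8, 1043, 1599 and 1576 TPM in Myocd-LSD1NF (log2 fold change -3.53 ± 0.505, adjusted p = 2.29e-04), and Gadd45b, Gadd45g, Plk3 and Btg1 had log2 fold changes of -2.88, -2.38, -2.39 and -1.32. Tnfrsf10b, a death receptor, was higher at 0.87 ± 0.30, with overlapping groups and a call lost in 11 of 17 alternative fits.

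Matrix genes moved in both directions. Of 37 collagen and elastic fibre genes, 8 were higher and 5 lower with PDGF-BB, with a median of 0.08, and 6 and 9 under median-of-ratios scaling. Among all genes 23.9% were higher, near the share of this list, and 7.59% lower. Without Myocd-LSD1NF 4, 8 were lower. Eln, the gene of tropoelastin, had 1501, 1408 and 1331 TPM in PDGF-BB, against 7791, 7798, 8543 and 2292 TPM in Myocd-LSD1NF (log2 fold change -2.06 ± 0.55, adjusted p = 0.0119), and 14327, 11322, 15036 and 11473 TPM in control. Library 4 of Myocd-LSD1NF was closest to the PDGF-BB values. Lox, the lysyl oxidase that crosslinks elastin and collagen, had 463, 429 and 395 TPM against 1214, 1257, 889 and 744 TPM (log2 fold change -1.22 ± 0.18, adjusted p = 3.37e-04), and Fbln5, an elastic fibre assembly protein, averaged 864 ± 252 TPM against 1837 ± 271 TPM (log2 fold change -1.12 ± 0.27, adjusted p = 0.007). The basement membrane chains Col4a2 and Col4a1 were lower, with log2 fold changes of -0.72 ± 0.16 and -0.67 ± 0.17.

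Other members of this list rose, basement membrane genes among them. Col8a1, a short chain collagen of vessel walls, had 1783, 2415 and 2596 TPM in PDGF-BB, against 829.5, 784, 374 and 794 TPM in Myocd-LSD1NF (log2 fold change 1.75 ± 0.36, adjusted p = 0.00267). Col15a1, a basement membrane zone collagen, had 30.6, 29.5 and 20.7 TPM against 6.27, 0.96, 2.34 and 0.43 TPM (log2 fold change 3.26 ± 0.42, adjusted p = 1.05e-04), and Col6a2, a chain of microfibrillar collagen VI, averaged 234 ± 20.02 TPM against 77.3 ± 34.6 TPM (log2 fold change 1.67 ± 0.37, adjusted p = 0.00439). Col6a1, Col18a1, Nid2 and Fbn1 also rose (log2 fold changes 1.63, 1.14, 1.42 and 0.83). Fbln1 was higher than in Myocd-LSD1NF (6.68 ± 0.527 against 0.788 ± 0.400 TPM, log2 fold change 2.13 ± 0.49, adjusted p = 0.00561), while control was at 17.2 ± 12.6 TPM, and the call was lost with a pseudocount of 5. The fibrillar chains Col1a1 and Col3a1 did not pass the test, with log2 fold changes of -0.30 ± 0.44 and 1.001 ± 0.43 and adjusted p = 0.638 and 0.0892.

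Proteoglycan and matricellular genes were called higher in 7 and lower in 12 of 35, with a median of 0.06, against 23.9% and 7.59% of all genes. Vcan, versican, a large hyaluronan-binding proteoglycan, had 85.3, 101 and 126 TPM in PDGF-BB, against 18.0, 35.4, 9.54 and 5.09 TPM in Myocd-LSD1NF (log2 fold change 2.84 ± 0.58, adjusted p = 0.0026), and 11.9, 5.17, 7.5 and 20.3 TPM in control. Fmod, the collagen-binding proteoglycan fibromodulin, had 135, 71.9 and 57.0 TPM against 608, 490.0, 567 and 507 TPM (log2 fold change -2.70 ± 0.38, adjusted p = 2.02e-04). Thbs2, thrombospondin 2, had 13.0, 3.44 and 1.73 TPM against 136, 71.4, 56.4 and 79.0 TPM (log2 fold change -3.89 ± 0.64, adjusted p = 6.37e-04). These 3 genes did not overlap between PDGF-BB and Myocd-LSD1NF, and none differed by the test between Myocd-LSD1NF and control (adjusted p = 0.771, 0.913 and 0.64). Sdc3, a syndecan, rose by 1.56 ± 0.22, and Cd44, the hyaluronan receptor, by 1.51 ± 0.34, while Gpc4, a glypican, and Tnxb, tenascin X, were at -1.68 ± 0.27 and -1.86 ± 0.46. Spp1, osteopontin, the most abundant of the list, did not pass the test, at 21195 ± 3589 TPM in PDGF-BB and 15539 ± 6055 TPM in Myocd-LSD1NF (adjusted p = 0.299).

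Proteases and their inhibitors were higher in 10 and lower in 6 of 35, with a median of 0.27, against 23.9% and 7.59% of all genes. In this list 6 were higher without PDGF-BB 3 and 6 without Myocd-LSD1NF 3. Timp1, an inhibitor of metalloproteinases, had 1036, 1189.9 and 1365 TPM in PDGF-BB, against 274, 422, 396 and 671 TPM in Myocd-LSD1NF (log2 fold change 1.504 ± 0.28, adjusted p = 0.00146), and Adam12, a transmembrane protease, averaged 93.1 ± 31.8 TPM against 31.4 ± 15.2 TPM (log2 fold change 1.63 ± 0.40, adjusted p = 0.00815). Proteases of the ADAMTS family went in both directions, with Adamts7 at 0.80 ± 0.24. Adamts12 had 63.0, 58.7 and 52.9 TPM against 328, 258, 210.4 and 297 TPM (log2 fold change -2.20 ± 0.20, adjusted p = 7.57e-06), and 238, 304, 204 and 328 TPM in control. Adamts1 averaged 166 ± 38.5 TPM against 653 ± 115 TPM (log2 fold change -1.98 ± 0.21, adjusted p = 2.49e-05), and Adamts9 was at -1.36 ± 0.35, a call lost without PDGF-BB 3. Serpine2, an inhibitor of thrombin, was higher at 0.98 ± 0.27, a call lost in 4 of 17 alternative fits, and Mmp24, a membrane-type metalloproteinase, at 1.18 ± 0.19. Ctsd, the lysosomal protease cathepsin D, was lower at -0.87 ± 0.17, and Ctsb and Ctsl, cathepsins B and L, were higher at 0.66 ± 0.14 and 0.56 ± 0.16.

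Signalling through G proteins, cyclic nucleotides and calcium was called higher in 10 and lower in 15 of 45 genes, with a median of -0.10. Among all genes 23.9% were called higher and 7.59% lower. Rgs4 and Rgs5, which shorten G protein signals, were lower. Rgs4 had 139, 69.1 and 39.2 TPM in PDGF-BB, against 716, 473, 669 and 1208 TPM in Myocd-LSD1NF (log2 fold change -3.30 ± 0.36, adjusted p = 3.20e-05), and Rgs5 had 124, 74.2 and 62.0 TPM against 749, 468, 589 and 2269 TPM (log2 fold change -3.30 ± 0.62, adjusted p = 0.00158), with Myocd-LSD1NF 4 the high library. Rgs17 rose to 22.3 ± 10.2 TPM, against 3.68 ± 0.939 TPM (log2 fold change 2.26 ± 0.29, adjusted p = 1.06e-04). Edn1, the gene of the vasoconstrictor endothelin 1, had 21.0, 6.09 and 14.1 TPM against 179, 237, 144 and 160.1 TPM (log2 fold change -3.74 ± 0.78, adjusted p = 0.00315), and Npr3, the clearance receptor of natriuretic peptides, 48.7, 30.9 and 15.6 TPM against 364, 426, 281 and 227 TPM (log2 fold change -3.41 ± 0.42, adjusted p = 6.97e-05).

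Of single genes for cyclic GMP, Gucy1b3, the beta subunit of soluble guanylate cyclase, was lower at -1.78 ± 0.34 and Npr1, the receptor guanylate cyclase for natriuretic peptides, at -0.90 ± 0.23. Pde1c and Pde1a, calmodulin-dependent phosphodiesterases, rose. Pde1c had 7.37, 6.98 and 5.34 TPM in PDGF-BB, against 0.52, 0.59, 0.27 and 0.13 TPM in Myocd-LSD1NF (log2 fold change 2.46 ± 0.27, adjusted p = 3.20e-05), and Pde1a 7.62, 9.61 and 8.81 TPM against 0.86, 1.23, 0.61 and 2.37 TPM (log2 fold change 2.15 ± 0.24, adjusted p = 3.65e-05). Pde1a was lower in Myocd-LSD1NF than in control (-1.27 ± 0.22, adjusted p = 0.00639), and against control the PDGF-BB change was 0.87 ± 0.24 (adjusted p = 0.0142). S1pr1, a receptor for sphingosine 1-phosphate, was likewise higher than in Myocd-LSD1NF (log2 fold change 1.44 ± 0.29, adjusted p = 0.00244) with no difference by the test from control (0.20 ± 0.29, adjusted p = 0.635). Under median-of-ratios scaling 5 members of the list were higher and 15 lower, with quantile normalization 6 were higher, and without PDGF-BB 1 or 2 6 and 6.

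The TGF-beta and BMP list held 5 higher and 13 lower members of 48, with a median of -0.16, and 3 higher ones without PDGF-BB 3. Id1 and Id3, inhibitors of basic helix-loop-helix factors and direct BMP targets, were lower. Id1 had 16.6, 11.2 and 13.8 TPM in PDGF-BB, against 268, 299, 337 and 531 TPM in Myocd-LSD1NF (log2 fold change -4.56 ± 0.30, adjusted p = 2.92e-07), and Id3 279, 127 and 217 TPM against 804, 812, 1160.4 and 1308 TPM (log2 fold change -2.33 ± 0.26, adjusted p = 4.26e-05). Id2 had 2.95, 1.54 and 1.19 TPM against 19.8, 19.2, 19.3 and 67.0 TPM (log2 fold change -3.30 ± 0.57, adjusted p = 8.56e-04), and Myocd-LSD1NF 4 stood alone at the top of its line. The inhibitory Smad7 had 37.7, 32.4 and 29.3 TPM against 119.6, 188, 162 and 305 TPM (log2 fold change -2.44 ± 0.41, adjusted p = 7.74e-04), and Smad6 was at -1.73 ± 0.22.

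Ligands of the pathway diverged. Tgfb3 had 78.9, 96.1 and 81.2 TPM in PDGF-BB, against 641, 449, 646 and 372 TPM in Myocd-LSD1NF (log2 fold change -2.58 ± 0.17, adjusted p = 2.92e-07), and Bmp6 1.48, 2.09 and 1.22 TPM against 40.3, 39.1, 26.5 and 26.2 TPM (log2 fold change -3.70 ± 0.36, adjusted p = 1.06e-05). Tgfb1 was higher, with 159, 189 and 157 TPM against 86.7, 94.9, 85.9 and 132 TPM (log2 fold change 0.77 ± 0.14, adjusted p = 0.0012), and Inhba, the activin A subunit, averaged 157 ± 52.4 TPM against 70.1 ± 22.0 TPM (log2 fold change 1.15 ± 0.29, adjusted p = 0.00892), a call lost without PDGF-BB 3. Inhbb, the activin B subunit, was at 0.82 ± 0.24, a call lost in 5 of 17 alternative fits, and Tgfbr3, betaglycan, at 1.48 ± 0.32. The signalling receptors Tgfbr1 and Tgfbr2 did not pass the test (log2 fold changes 0.32 and -0.12, adjusted p = 0.0986 and 0.686).

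Of the IGF axis, 2 of 17 genes were higher and 3 lower, with a median of -0.06. The insulin receptor substrates were lower. Irs2 had 17.8, 18.8 and 15.5 TPM in PDGF-BB, against 59.5, 120.2, 117 and 191 TPM in Myocd-LSD1NF (log2 fold change -2.63 ± 0.49, adjusted p = 0.0015), and Irs1 averaged 2.3 ± 0.726 TPM against 9.17 ± 2.54 TPM (log2 fold change -1.62 ± 0.25, adjusted p = 4.15e-04). Igfbp7, an IGF-binding protein, and Igf2bp2, an RNA-binding protein, were at -0.59 ± 0.19 and 0.59 ± 0.18, calls lost in 4 and 6 of 17 alternative fits. Under median-of-ratios scaling 1 member was higher, with quantile normalization 5 were lower, and without PDGF-BB 2, PDGF-BB 3, Myocd-LSD1NF 1 or Myocd-LSD1NF 3, 1 was higher. Stc1, the secreted glycoprotein stanniocalcin 1, had 11.4, 20.8 and 54.0 TPM against 2.76, 4.93, 3.27 and 8.15 TPM (log2 fold change 2.18 ± 0.43, adjusted p = 0.00221).

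Adhesion genes were called higher in 11 and lower in 7 of 39, with a median of 0.05. The shares of all genes were 23.9% higher, near that of this list, and 7.59% lower. Itga5, the alpha chain of the fibronectin receptor, had 325, 298 and 322 TPM in PDGF-BB, against 86.6, 157, 109 and 162 TPM in Myocd-LSD1NF (log2 fold change 1.33 ± 0.20, adjusted p = 2.67e-04) and 96.0, 81.0, 108 and 115 TPM in control. Alcam, a cell adhesion molecule of the immunoglobulin family, had 97, 80.7 and 83.5 TPM against 20.3, 23.2, 26.3 and 12.8 TPM (log2 fold change 2.06 ± 0.53, adjusted p = 0.00965). Icam1 was lower, at 96.1 ± 13.2 TPM against 170.5 ± 48.2 TPM (log2 fold change -0.79 ± 0.22, adjusted p = 0.0164), a call lost without PDGF-BB 2 or 3. Cdh8, a cadherin, and Itga6, a laminin-binding integrin chain, were at -1.81 ± 0.53 and -0.91 ± 0.33. Both overlapped between the groups through Myocd-LSD1NF 4, and their calls were lost in 5 and 8 of 17 alternative fits. The focal adhesion genes Vcl and Zyx were at -0.69 ± 0.24 and -0.49 ± 0.13, and Pxn and Ptk2 at 0.58 ± 0.18 and 0.52 ± 0.09. The number of lower members moved with single libraries, to 2 without PDGF-BB 2 or PDGF-BB 3, 4 without PDGF-BB 1, 3 without Myocd-LSD1NF 1 and 4 without Myocd-LSD1NF 2 or 3, and it was 4 with the groups fitted alone.

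Cytokine genes and the interferon response took different directions. Of 33 chemokine, cytokine and NF-kappaB genes, 6 were higher and 11 lower, with a median of -0.21. Nfkbia had 12.6, 11.1 and 13.4 TPM in PDGF-BB, against 60.5, 128, 164 and 227 TPM in Myocd-LSD1NF (log2 fold change -3.30 ± 0.64, adjusted p = 0.00198), and Cxcl1 44.7, 2.04 and 21.2 TPM against 136, 239.8, 322 and 345 TPM (log2 fold change -4.08 ± 0.90, adjusted p = 0.00417). Both promoters are shown above with their kappaB motif, and neither gene overlapped between the groups. For Cxcl1, among the largest falls taken, no overlap was a condition. Tnfaip6, a hyaluronan-binding protein induced by inflammation, had 50.9, 44.7 and 81.3 TPM against 149, 388, 275 and 789 TPM (log2 fold change -2.53 ± 0.47, adjusted p = 0.00143). The chemokines Cxcl10 and Cx3cl1 were higher. Cxcl10, itself an interferon target, had 13.4, 54.9 and 74.0 TPM against 5.24, 7.59, 1.44 and 0.86 TPM (log2 fold change 3.31 ± 0.65, adjusted p = 0.00207), and Cx3cl1 138, 121 and 85.7 TPM against 34.1, 53.8, 37.5 and 7.72 TPM (log2 fold change 2.004 ± 0.497, adjusted p = 0.00833). Il1rl1, the receptor of interleukin 33, was at 1.82 ± 0.40 and Tnfaip8, a TNF-induced gene, at 0.90 ± 0.16. The count of lower members was 7 without PDGF-BB 2 and 7 without PDGF-BB 3.

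Of 32 interferon-stimulated genes, 21 were higher with PDGF-BB and 0 lower, with a median of 0.86. Isg15, a ubiquitin-like protein, had 9.53, 35 and 36.4 TPM in PDGF-BB, against 3.72, 6, 1.45 and 0.67 TPM in Myocd-LSD1NF (log2 fold change 2.83 ± 0.64, adjusted p = 0.00501), and 28.6, 16.9, 4.86 and 3.23 TPM in control, against which the change did not pass the test (1.18 ± 0.64, adjusted p = 0.185). Gbp2, a guanylate-binding protein, had 54.9, 100.1 and 107 TPM against 12.6, 20.5, 6.43 and 11.4 TPM (log2 fold change 2.73 ± 0.51, adjusted p = 0.00153), Mx2, a dynamin-like antiviral GTPase, 4.34, 17.3 and 16.9 TPM against 1.22, 4.22, 0.22 and 0.37 TPM (log2 fold change 2.52 ± 0.59, adjusted p = 0.00608), and Ifit3 2.15, 13.4 and 12.5 TPM against 1.41, 1.57, 0.31 and 0.05 TPM (log2 fold change 2.31 ± 0.54, adjusted p = 0.0057). PDGF-BB 1 was the lowest treated library in all 4 and PDGF-BB 2 and 3 lay close together. The factor Irf1 did not pass the test, with a log2 fold change of -0.27 ± 0.67. Against control 16 members were higher (19.2% of all genes were), and the count against Myocd-LSD1NF ranged from 16 to 21 over the alternatives. No member was called between Myocd-LSD1NF and control, where only 2.21% of all genes were.

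**Figure D4:**
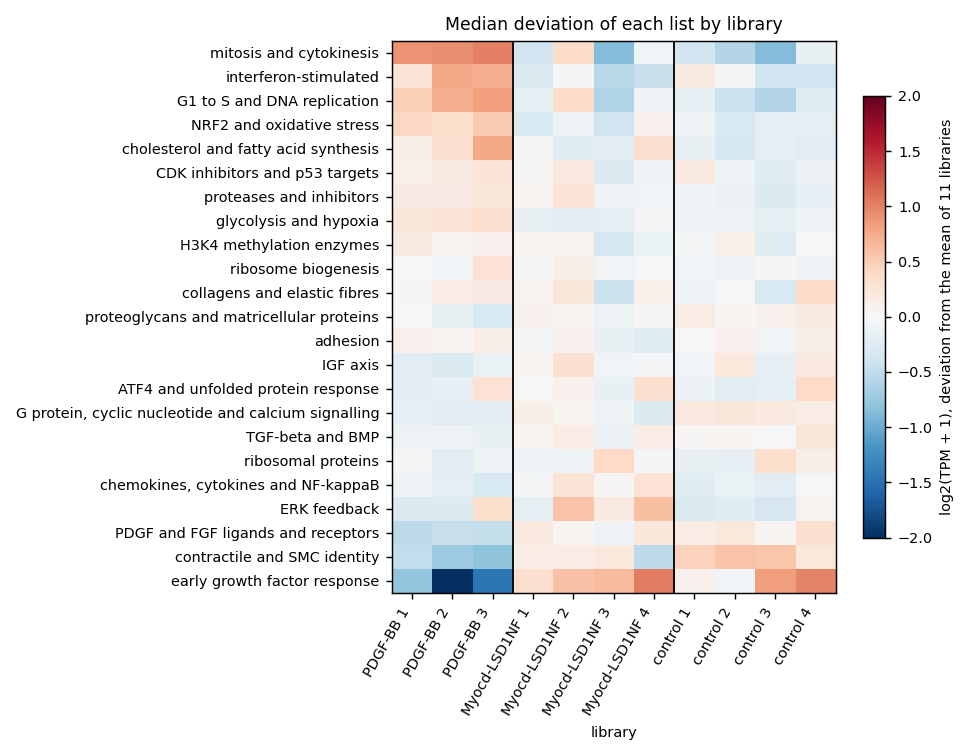
Median over the tested members of each of 23 lists (rows) of the deviation of log2(TPM + 1) from the mean of the 11 libraries shown (columns: 3 PDGF-BB, 4 Myocd-LSD1NF, 4 control), in colour from blue (below) to red (above). The early response row is lowest in PDGF-BB 2, the contractile row is low in Myocd-LSD1NF 4 as well as in PDGF-BB, and the mitosis row is high in all 3 PDGF-BB libraries.

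Many genes of glucose metabolism rose. Of 39 glycolysis, pentose phosphate and hypoxia genes, 18 were higher and 2 lower, with a median of 0.26. Pkm, pyruvate kinase, had 1795, 2144 and 2091 TPM in PDGF-BB, against 656, 707, 558 and 985 TPM in Myocd-LSD1NF (log2 fold change 1.49 ± 0.20, adjusted p = 1.25e-04), and Tkt, transketolase of the pentose phosphate pathway, 551, 563 and 551 TPM against 209.8, 243, 208 and 293 TPM (log2 fold change 1.23 ± 0.12, adjusted p = 9.39e-06). Gapdh, often used as a reference gene and shown for that reason after its values were seen, had 2535, 3190.4 and 2533 TPM against 1242, 1266, 1191 and 1429 TPM (log2 fold change 1.10 ± 0.13, adjusted p = 5.60e-05). None of these 3 overlapped. Ldha, Pgk1, Eno1 and Tpi1 were at 0.98 ± 0.15, 1.21 ± 0.16, 1.18 ± 0.15 and 0.91 ± 0.13. Slc16a3, a lactate exporter, averaged 23.9 ± 5.76 TPM against 6.51 ± 7.95 TPM (log2 fold change 2.23 ± 0.496, adjusted p = 0.00453), with Myocd-LSD1NF 4 inside the PDGF-BB range. Vegfa was lower, with 33.7, 20.9 and 37.4 TPM in PDGF-BB, against 68.4, 57.2, 52.7 and 127 TPM (log2 fold change -1.24 ± 0.29, adjusted p = 0.00596). Adm, adrenomedullin, was the other member lower (log2 fold change -1.18 ± 0.43, adjusted p = 0.0495), with overlapping groups and a call lost in 11 of 16 alternative fits. Under median-of-ratios scaling 4 members were lower, and without any 1 library but Myocd-LSD1NF 2 or 4, 1 was. The glucose transporter Slc2a1 and the hypoxia targets Bnip3 and Pdk1 did not pass the test (log2 fold changes 0.11, -0.40 and 0.24). The count of higher members was 15 to 19 over the alternatives.

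Of 39 cholesterol and fatty acid synthesis genes, 16 were called higher and 0 lower, with a median of 0.52. Fads1, a fatty acid desaturase, averaged 127 ± 31.8 TPM in PDGF-BB, against 66.5 ± 26.4 TPM in Myocd-LSD1NF (log2 fold change 0.97 ± 0.27, adjusted p = 0.0143), with Myocd-LSD1NF 4 inside the PDGF-BB range and a call lost without PDGF-BB 3. Ebp, a sterol isomerase, and Scd, a stearoyl-CoA desaturase, were at 0.86 ± 0.23 and 1.20 ± 0.44, and the Scd call was lost in 11 of 17 alternative fits and the Ebp call without PDGF-BB 3. This count rested on single libraries and on the scaling, at 3 without PDGF-BB 3, 9 without PDGF-BB 2, 7 without Myocd-LSD1NF 3, 10 without Myocd-LSD1NF 2, 7 with the groups fitted alone and 6 under median-of-ratios scaling.

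Targets of NRF2, the factor of the oxidative stress response, were higher in 12 and lower in 1 of 24, with a median of 0.54, and 7 were higher without PDGF-BB 3. Nqo1, a quinone reductase, had 36.0, 46.2 and 41.6 TPM in PDGF-BB, against 10.7, 7.88, 11.4 and 10.3 TPM in Myocd-LSD1NF (log2 fold change 1.94 ± 0.16, adjusted p = 2.49e-06) and 14.5, 13.8, 11.8 and 13.5 TPM in control. Gstp1, a glutathione transferase, had 1112, 1303 and 1859.8 TPM against 296, 431, 319 and 424 TPM (log2 fold change 1.94 ± 0.28, adjusted p = 2.34e-04), and Akr1b10, an aldo-keto reductase, 30.7, 43.1 and 72.3 TPM against 2.97, 4.24, 2.49 and 8.3 TPM (log2 fold change 3.20 ± 0.32, adjusted p = 1.72e-05). Every PDGF-BB value exceeded every Myocd-LSD1NF value for these genes. Gst and Akr1b genes belong to families of close relatives, and reads shared between them could be assigned differently. Slc7a11, the cystine transporter, rose to 7.06 ± 2.90 TPM, against 2.07 ± 1.59 TPM (log2 fold change 1.46 ± 0.46, adjusted p = 0.0269), a call lost in 6 of 16 alternative fits, and Sod3, the extracellular superoxide dismutase, was lower at -0.58 ± 0.21, a call lost in 8 of 17. Txnrd1, Gclc and Hmox1 did not pass the test (log2 fold changes 0.36, 0.40 and 0.75).

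Genes of the ATF4 and unfolded protein response were split, 5 higher and 9 lower of 40, with a median of -0.10. Cebpb, a bZIP factor, had 35.9, 24.8 and 25.5 TPM in PDGF-BB, against 153, 166, 211 and 203 TPM in Myocd-LSD1NF (log2 fold change -2.64 ± 0.31, adjusted p = 5.71e-05), and Chac1, an ATF4 target that degrades glutathione, 8.54, 8.57 and 21.4 TPM against 49.3, 47.0, 52.0 and 121 TPM (log2 fold change -2.31 ± 0.53, adjusted p = 0.00545). Atf4 itself was at -0.68 ± 0.23 (adjusted p = 0.038) and Vldlr, a lipoprotein receptor, at -1.81 ± 0.33. Hspa5, the chaperone BiP, was lower at -0.68 ± 0.23, whereas Hsp90b1 and Pdia6, also of the endoplasmic reticulum, were higher at 0.52 ± 0.16 and 0.48 ± 0.11, calls lost in 4 and 1 of 17 alternative fits. Both of these rises lost their call under median-of-ratios scaling, which left 1 member higher. The higher count was also 1 without PDGF-BB 3, 3 without PDGF-BB 2 and 2 without Myocd-LSD1NF 1 or 3, and 5 members were lower without PDGF-BB 2.

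Kdm1a, which encodes LSD1, had 75.6, 62.0 and 74.3 TPM in PDGF-BB, against 50.6, 61.9, 54.7 and 49.1 TPM in Myocd-LSD1NF (log2 fold change 0.38 ± 0.10, adjusted p = 0.0131), and 57.9, 54.6, 57.5 and 50.4 TPM in control. The values did not overlap, but the call was lost under median-of-ratios scaling and without PDGF-BB 1 or 3. Of 28 genes listed for H3K4 methylation, mostly enzymes that write or erase it and their partners, 6 were called higher and 1 lower. The higher count was 1 under that scaling, 3 with quantile normalization and 1 to 3 without any 1 of the PDGF-BB libraries or Myocd-LSD1NF 3. The largest rise was Kdm2a, a histone demethylase not specific to H3K4, at 0.61 ± 0.20. The fall was Rcor2, a corepressor that partners LSD1, at -0.85 ± 0.31 with overlapping groups and a call lost in 10 of 17 alternative fits. The Kdm2a call was lost in 7 of 17. These stand against a median of 0.22 for the list and 0.18 for all genes. Among all genes 23.9% were called higher, near the share of this list, and 7.59% lower. Of 36 cytosolic ribosomal protein genes, 0 were higher and 1 lower (Rplp2, log2 fold change -0.56 ± 0.20, adjusted p = 0.0485), a call lost in 10 of 17 alternative fits. Of 44 ribosome biogenesis genes, 4 were higher and 3 lower, against 0 and 5 under median-of-ratios scaling, and none was higher without PDGF-BB 3. None was lower without PDGF-BB 2, and 1 was without PDGF-BB 1, Myocd-LSD1NF 1 or Myocd-LSD1NF 2. Ncl and Pa2g4, nucleolar proteins, were at 0.39 ± 0.12 and 0.54 ± 0.14, calls lost in 5 and 2 of 17 alternative fits, median-of-ratios scaling among them. Srm, spermidine synthase, was listed at 0 in all 3 PDGF-BB libraries, against 1.47, 7.76, 4.81 and 4.71 TPM in Myocd-LSD1NF.

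Some of the largest rises against Myocd-LSD1NF did not pass the test against control. Pdpn, Aebp1 and Lum were also taken because Myocd-LSD1NF was called lower than control in them and lay furthest below it. Pdpn, the membrane glycoprotein podoplanin, had 43.2, 54.9 and 96.9 TPM in PDGF-BB and 1.51, 2.13, 1.71 and 0.05 TPM in Myocd-LSD1NF, and 58.0, 61.1, 45.3 and 19.7 TPM in control. The log2 fold change was 4.84 ± 0.40 against Myocd-LSD1NF (adjusted p = 3.20e-06) and 0.53 ± 0.40 against control (adjusted p = 0.352), and that of Myocd-LSD1NF against control was -4.32 ± 0.37 (adjusted p = 1.46e-05). Aebp1, a secreted collagen-binding protein, had 13.1, 17.5 and 16.9 TPM in PDGF-BB, 0.02, 0.11, 0.09 and 0.1 TPM in Myocd-LSD1NF and 17, 10.97, 14.4 and 19.0 TPM in control. It was at 3.95 ± 0.19 against Myocd-LSD1NF (adjusted p = 3.63e-08) and 0.06 ± 0.19 against control (adjusted p = 0.851). Lum, the proteoglycan lumican, had 46.0, 25.05 and 17.1 TPM, 0.95, 2.21, 1.26 and 3.4 TPM and 26.5, 21.6, 31.3 and 8.37 TPM in the same order of groups, with 3.32 ± 0.46 against Myocd-LSD1NF (adjusted p = 1.90e-04) and 0.43 ± 0.46 against control (adjusted p = 0.521).

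Other genes passed the test against both untreated groups and differed between them. Jup, plakoglobin of cell junctions, had 24.7, 34.2 and 28.2 TPM in PDGF-BB, 0.12, 0.44, 0.14 and 0.95 TPM in Myocd-LSD1NF and 17.8, 19.6, 10.2 and 11 TPM in control, with 4.44 ± 0.25 against Myocd-LSD1NF and 0.98 ± 0.25 against control (adjusted p = 8.16e-08 and 0.0107). Meox2, a homeobox factor of mesoderm and vessels, averaged 12.6 ± 4.10 TPM in PDGF-BB, had 0.15, 0.13, 0.08 and 0 TPM in the Myocd-LSD1NF libraries and averaged 6.81 ± 2.13 TPM in control, with 3.60 ± 0.21 against Myocd-LSD1NF and 0.80 ± 0.21 against control (adjusted p = 1.04e-07 and 0.013). Adcy4, an adenylate cyclase, averaged 14.9 ± 1.44 TPM in PDGF-BB, 0.348 ± 0.230 TPM in Myocd-LSD1NF and 8.99 ± 3.65 TPM in control, with 3.57 ± 0.25 and 0.74 ± 0.25 (adjusted p = 4.99e-07 and 0.0392). Myocd-LSD1NF was lower than control in all 3 genes (adjusted p = 1.34e-06, 1.73e-06 and 9.58e-06). The naming rule took Jup and Adcy4 for this difference as well, so for them it is a condition and no result.

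In a further group of genes, taken for this difference, Myocd-LSD1NF was above control. Npy1r, a neuropeptide Y receptor, had 1.14, 0.75 and 1.86 TPM in PDGF-BB, 5.59, 7.14, 5.74 and 6.6 TPM in Myocd-LSD1NF and 2.12, 1.36, 1.38 and 1.89 TPM in control, with -1.72 ± 0.19 against Myocd-LSD1NF (adjusted p = 3.77e-05) and -0.28 ± 0.19 against control (adjusted p = 0.304). Comp, cartilage oligomeric matrix protein, showed the same order of means at 2.38 ± 1.60, 8.56 ± 1.39 and 3.19 ± 0.985 TPM, as did Frat2, a regulator of Wnt signalling, at 0.373 ± 0.413, 5.82 ± 1.64 and 1.84 ± 0.705 TPM. In Mageh1 the highest group was also Myocd-LSD1NF, with 14.2 ± 1.72, 23.6 ± 3.53 and 11.5 ± 2.93 TPM, and its call against Myocd-LSD1NF was lost with a pseudocount of 0.1 and without PDGF-BB 3. Cyp1b1, a cytochrome P450, was higher in PDGF-BB than in Myocd-LSD1NF and higher there than in control, with 409.9, 373 and 376 TPM, 161, 188, 176 and 266 TPM and 86.6, 62.0, 142 and 114 TPM, and its log2 fold change was 0.99 ± 0.25 against Myocd-LSD1NF and 1.99 ± 0.25 against control (adjusted p = 0.00902 and 7.93e-05).

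**Figure D5:**
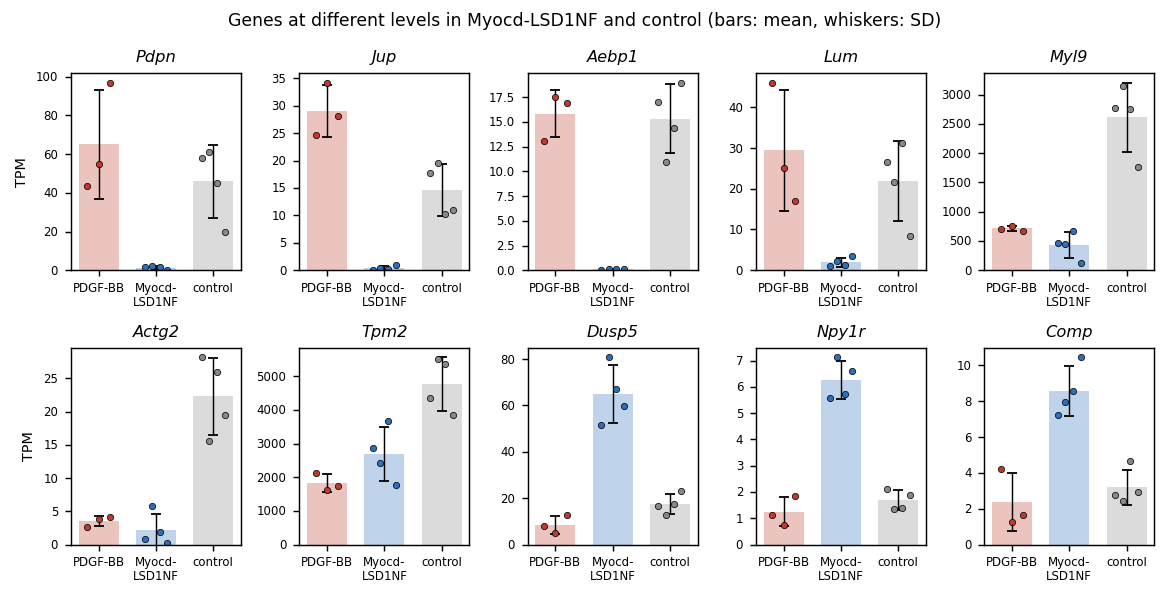
TPM by library of 10 genes whose level differed between Myocd-LSD1NF and control, in PDGF-BB (red, n = 3), Myocd-LSD1NF (blue, n = 4) and control (grey, n = 4), with bars at the mean and whiskers of 1 SD. Pdpn, Jup, Aebp1 and Lum are lowest in Myocd-LSD1NF, Myl9, Actg2 and Tpm2 average below control in both PDGF-BB and Myocd-LSD1NF, and Dusp5, Npy1r and Comp are highest in Myocd-LSD1NF.

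Other genes, taken because Myocd-LSD1NF and control differed least in them, changed by like amounts against either untreated group. Trim47, a ubiquitin ligase of the tripartite motif family, had 27.0, 23.4 and 27.4 TPM in PDGF-BB, against 3.34, 4.15, 3.26 and 3.2 TPM in Myocd-LSD1NF and 3.45, 3.45, 4.11 and 4.06 TPM in control, with log2 fold changes of 2.59 ± 0.17 and 2.5 ± 0.17. Slc29a1, a nucleoside transporter, had 99.9, 122 and 165 TPM in PDGF-BB, against 9.62, 14.6, 7.12 and 20.01 TPM in Myocd-LSD1NF (log2 fold change 3.30 ± 0.33, adjusted p = 1.74e-05), and 12.6, 10.2, 10.95 and 13.2 TPM in control, with 3.32 ± 0.33 against it. Adh7, an alcohol dehydrogenase, and Enpep, glutamyl aminopeptidase, averaged 10.5 ± 1.38 and 44.2 ± 3.38 TPM in PDGF-BB, against 0.332 ± 0.233 and 7.01 ± 3.98 TPM in Myocd-LSD1NF and 0.452 ± 0.287 and 7.27 ± 2.28 TPM in control. Otud1, a deubiquitinase, was lower than in either, at 15.8 ± 5.13 TPM, against 80.8 ± 14.9 TPM in Myocd-LSD1NF and 83.0 ± 15.1 TPM in control. Myocd-LSD1NF and control did not differ by the test in these genes (adjusted p = 0.832, 0.981, 0.818, 0.888 and 0.962). The choice of genes made this likely, and it does not show that the untreated groups were alike.

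The other 5 of the 10 largest rises passed the test against both untreated groups. Ptprn, a phosphatase-like receptor of secretory granules, had 266, 395 and 447 TPM in PDGF-BB, against 10.8, 14.4, 9.54 and 18.0 TPM in Myocd-LSD1NF (log2 fold change 4.71 ± 0.39, adjusted p = 3.20e-06) and 29.4, 30.2, 14.0 and 16.6 TPM in control. Ano1, a calcium-activated chloride channel, had 45.2, 84.8 and 105 TPM against 4.64, 6.11, 2.99 and 3.5 TPM (log2 fold change 3.86 ± 0.34, adjusted p = 4.58e-06) and 2.68, 4.27, 1.35 and 2.21 TPM in control, and Hmga1, an architectural chromatin protein, 73.6, 123 and 109.8 TPM against 4.58, 11.2, 7.56 and 11.2 TPM (log2 fold change 3.46 ± 0.26, adjusted p = 9.09e-07) and 4.09, 3.44, 5.25 and 4.91 TPM in control. Penk, the gene of enkephalin precursors, averaged 31.0 ± 10.1 TPM against 1.72 ± 0.393 TPM (log2 fold change 3.52 ± 0.20, adjusted p = 8.16e-08) and 3.99 ± 0.585 TPM in control, and Cd180, a Toll-like receptor homologue, 145 ± 71.4 TPM against 10.8 ± 6.90 TPM (log2 fold change 3.69 ± 0.56, adjusted p = 3.50e-04) and 24.2 ± 10.9 TPM in control. Every PDGF-BB library lay above every Myocd-LSD1NF library in these 5 genes, which was a condition for taking them. Penk was lower in Myocd-LSD1NF than in control (log2 fold change -0.88 ± 0.19, adjusted p = 0.0255), and its rise against control was 2.64 ± 0.20. Ptprn, Ano1, Hmga1 and Cd180 did not differ by the test between Myocd-LSD1NF and control (adjusted p = 0.381, 0.404, 0.115 and 0.296).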

How the data were processed

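PolyA-selected stranded RNA libraries were made by the authors with a TruSeq kit, per the labels' protocols. The deposited table gives TPM per gene for 15 libraries. The sources used here name no aligner, build or annotation. Each column summed to about 1000000, 4 columns of group means were not used, and genes were matched by symbol.

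Genes at 1 TPM or more in at least 3 of the 15 libraries (12207 of 32623 entries) were tested on log2(TPM + 1) with limma 3.58.1 (R 4.3.3, trend, 1 mean per group over all libraries), and called at a Benjamini-Hochberg adjusted p under 0.05. The script was tested on simulated data. Figures used Python 3.11.15 and matplotlib 3.10.9. Promoters were RefSeq GRCr8, by symbol.

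Members and lists were chosen with earlier results of these data known. Named genes were the 10 largest rises and falls at 5 TPM or more without overlap, up to 4 called members per list and direction, 8 set genes, and genes for which Myocd-LSD1NF and control differed most or least. Others were shown after their values were seen. Alternatives changed the pseudocount, filter, scaling, weights, block, samples fitted and libraries kept. Some genes are not reported here.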

Additional observations from a re-analysis of the deposited data

Results flagged for a closer look

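In groups of 4 libraries, a library was singled out where its gap to the nearest other passed the 95% critical value of Dixon's test, which sets the gap against the group's range. Of 440 groups checked over the 220 genes described with values, 32 had such a library, 7.27%, and chance gives about 1 in 20. The 3 PDGF-BB libraries are too few for this test.

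Myocd-LSD1NF 4 accounted for 13 of the 32. It was below the other 3 of its line in Acta2 at 3978.7 TPM (10729 to 11982 in the others), Eln at 2292.1 TPM (7791.3 to 8542.8) and Cdh8 at 1.59 TPM (15.02 to 17.44). It was above them in the signalling and early genes Fgf18 at 121.35 TPM (5.42 to 19.61), Rgs5 at 2269 TPM (467.95 to 748.77), Id2 at 67.05 TPM (19.22 to 19.76), Etv5 at 21.92 TPM (7.24 to 9.66), Inhbb at 14.45 TPM (7.5 to 8.12) and Egr1 at 2188.1 TPM (1274.9 to 1341.7). It was also above them in Col6a2 at 129.21 TPM, Chac1 at 121.24 TPM, Pdia6 at 505.95 TPM and Ctsl at 393.62 TPM. Without this library 3832 genes were called between PDGF-BB and Myocd-LSD1NF in place of 3839.

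Myocd-LSD1NF 2 stood above its line in Ccnd2 at 1.91 TPM (0.13 to 0.41), Cdkn2a at 36.39 TPM (21.69 to 21.77), Pa2g4 at 143.45 TPM and Trim47 at 4.15 TPM, and Myocd-LSD1NF 3 stood below it in Col8a1 at 373.51 TPM (783.84 to 829.54).

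Among control libraries, control 1 was above the others in Cdkn1a at 272.35 TPM, Eno1 at 1081.5 TPM, Mmp24 at 0.35 TPM, Mx2 at 6.79 TPM (0.58 to 1.42) and Scd at 49.05 TPM. Control 2 was above the others in Tgfb1 at 82.61 TPM and below them in Tkt at 182.55 TPM. Control 3 was above them in Spry1 at 66.33 TPM and below them in Lox at 745.44 TPM. Control 4 was above them in Col1a1 at 6921.4 TPM (2438.5 to 2829.1), Col4a2 at 988.34 TPM, Tnxb at 11.96 TPM (1 to 2.53), Slc7a11 at 5.55 TPM (0.49 to 1.11) and Pdk1 at 37.48 TPM.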

How the results depend on the processing

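The number of genes called between PDGF-BB and Myocd-LSD1NF, 3839, was 3146 to 4798 under the 10 alternatives that kept every compared library and 2177 to 3832 when each library was left out in turn, lowest without PDGF-BB 3. That between PDGF-BB and control, 3384, was 2137 to 2993 with libraries left out. That between Myocd-LSD1NF and control, 270, was 110 when genes needed a mean of 5 TPM, 919 with limma array weights, 176 with the 2 groups fitted alone and 109 to 312 with libraries left out, and fewer genes were tested under the filter. The cause of the other shifts was not tested. Same-numbered libraries of PDGF-BB and Myocd-LSD1NF did not deviate together (r = 0.1, 0.119 and -0.138 across genes), while those of Myocd-LSD1NF and control gave 0.195, -0.083, 0.576 and 0.301 and those of PDGF-BB and control -0.225, 0.139 and -0.102, so not every pair passed 0.1 in any comparison. A fit with the replicate number as a block called 3884, 3565 and 342 genes in the comparisons of PDGF-BB with Myocd-LSD1NF, PDGF-BB with control and Myocd-LSD1NF with control. Of 169 called genes that the naming rule took, 124 kept their call under all 17 alternatives and 45 lost it under at least 1. Pdgfra, not called, changed sign with quantile normalization, to -0.079. Over the gene lists, 774 of 952 counts stayed within 1.5-fold of the main one and 178 moved further. The files give no depth, so counting error could not be set beside the spread of libraries.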
